A study of Mus musculus with 20 samples.

Results

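Plantaris muscle of tamoxifen-treated, satellite cell-depleted (SC-) mice after 5 days of mechanical overload (MOV) was compared with plantaris muscle of SC- mice after sham surgery. The comparison holds the 4 arrays whose sample titles give this treatment and surgery, 2 of MOV day 5 and 2 of sham, of 20 arrays in the series. All 19572 probe sets that the platform annotation pairs with exactly 1 gene symbol were used, of 28846 in the table, and they stand for 19505 genes. In MOV, part of the gastrocnemius and the whole soleus were removed from both hind limbs, so that the plantaris carried the load of its synergists. All mice, the vehicle-treated SC+ mice included, were female, 5 months old and of the genotype Pax7CreER/+; Rosa26DTA/+. In these mice the *Pax7* locus drives a tamoxifen-activated Cre, which turns on diphtheria toxin A in cells that express *Pax7*, and SC+ mice had vehicle in place of tamoxifen before MOV or sham surgery. Since every tamoxifen-treated group was also depleted, effects of the drug and of the depletion cannot be told apart between SC- and SC+. Each array carried RNA pooled from 2 or 3 mice, so that the spread given below lies between 2 pools and not between mice.

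Satellite cells are the stem cells of skeletal muscle, which divide after load or injury and fuse with fibres. An overloaded muscle also takes in neutrophils and macrophages, and its fibroblasts build new matrix while the fibres reset their metabolism. RNA of the whole muscle holds all of these cells, and fewer cells of a type and less RNA per cell cannot be told apart in it.

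Levels are on the log2 scale of the deposited robust multi-array average (RMA) values, where a step of 1 is a doubling. The 4 arrays carried the markers of the labelled tissue, with the mean of 9 myofibre markers at 18.2 and 18.0 in SC- MOV day 5 against 19.1 and 19.1 in SC- sham. The mean of 6 satellite cell markers was 4.93 and 4.64 in SC- MOV day 5 and 4.93 and 4.82 in SC- sham, against 5.58 and 5.43 in SC+ MOV day 5 and 5.33 and 5.47 in SC+ sham. The medians of 23 background probe sets lay between 5.22 and 5.72 on the 4 arrays and between 5.15 and 5.72 on all 20. The marker means were thus not above the highest background median in SC- or SC+ muscle. Over all days of MOV and sham, they were still lower on every SC- array (4.64 to 5.04) than on every SC+ array (5.09 to 5.68). *Pax7* itself was at 4.53 and 4.24 in SC- MOV day 5 and at 4.70 and 4.23 in SC- sham, below its 5.22 and 4.88 in SC+ MOV day 5 and 4.84 and 5.02 in SC+ sham. None of the 6 markers passed the test between SC- and SC+ in either state with all arrays, and 1 passed without SC+ sham replicate 1 and 1 without SC+ sham replicate 2. Among SC- arrays, sham replicate 2 stood apart from sham replicate 1, with *Mt2*, a metallothionein, at 19.14 against 12.59 and *Myh7*, the slow myosin heavy chain, at 15.26 against 11.64. In all, 40 genes differed by 2 or more between the SC- sham arrays and 9 between the SC- MOV day 5 arrays.

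At day 5 of MOV, 2900 genes were higher and 2536 lower in SC- muscle than in SC- sham muscle, 14.9% and 13.0% of the 19505 genes. These counts come from a limma fit of all 20 arrays with a mean for each of 10 groups, at a Benjamini-Hochberg adjusted p under 0.05. At an unadjusted p under 0.05, 7185 genes (36.8%) passed. The changes were large, with 905 genes at least 4 times higher and 485 at least 4 times lower among those past the threshold, and a median standard error of 0.279 on the log2 scale. The median log2 fold change of all genes was -0.10. A call is named stable below where it also passed with each of the 4 arrays left out in turn, with its fold change within 1.5 times, and where the 2 MOV arrays lay beyond both sham arrays. The last alone held for 11301 genes, 57.9% of all. Stable calls numbered 1793 higher and 1271 lower, 9.19% and 6.52% of all genes. Where both arrays of a group lay at or under the highest background median, as in SC- sham for *Arg1*, *Ccl12*, *Cdk1*, *Cx3cr1*, *Cxcl5*, *Fabp5*, *Hgf*, *S100a8* and *Sfrp1* and in SC- MOV day 5 for *Axin2*, *Chad* and *Retnla*, the level there is only a bound and the fold change given below has no exact size. Of the 8174 genes with a mean under 6, at the level of background, 656 passed. Among the 20 brightest genes, whose mean was at least 19 and so close to the ceiling of the values, 6 passed, all of them lower.

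*Hmox1*, the heme oxygenase that breaks down heme, had the largest stable rise, and was at 15.61 and 15.52 in SC- MOV day 5, against 7.46 and 9.50 in SC- sham. Both MOV arrays stood more than 6 above the higher sham array, a log2 fold change of 7.08 with a standard error of 0.635 (adjusted p = 4.59e-07). *Mmp12*, the elastase of macrophages, was at 12.59 and 13.18 in SC- MOV day 5, against 5.87 and 6.39 in SC- sham (log2 fold change 6.76). *Timp1*, an inhibitor of matrix proteases, was at 14.06 and 14.27, against 7.27 and 7.78 in SC- sham (6.64). In both genes each MOV array stood clear of each sham array. *Mki67*, the marker of dividing cells, was at 12.93 and 13.55 in SC- MOV day 5, against 7.12 and 6.19 in SC- sham (6.59). *Lox*, which crosslinks collagen, and *Tnc*, the matrix glycoprotein tenascin C, rose by 6.49 and 6.46. *Lilrb4a*, an inhibitory receptor of myeloid cells, *C3ar1*, the receptor of complement fragment C3a, and *Pf4*, a chemokine of platelets and macrophages, rose by 6.41, 6.37 and 6.30. The rest of the 12 largest stable rises were those of *Thbs1*, the matricellular protein thrombospondin 1, *Ctss*, a lysosomal protease of antigen-presenting cells, and *Cthrc1*, a secreted protein of activated fibroblasts (6.20, 6.03 and 5.98).

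**Figure D1:**
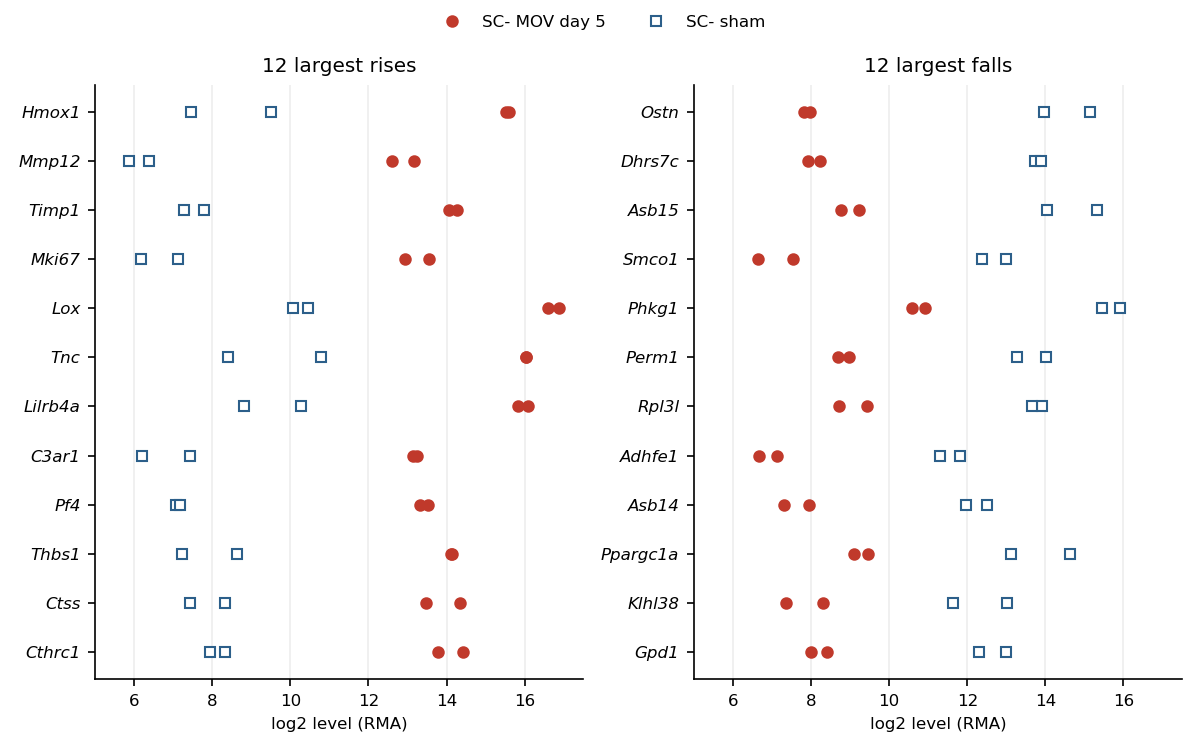
Log2 RMA level (x axis) of the 12 largest stable rises (left) and the 12 largest stable falls (right), with each SC- MOV day 5 array as a filled circle and each SC- sham array as an open square. For every gene both MOV arrays lie on the same side of both sham arrays, from *Hmox1* (15.61 and 15.52 against 7.46 and 9.50) to *Gpd1* (8.40 and 7.99 against 12.99 and 12.31).

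*Ostn*, which encodes the secreted peptide musclin, had the largest stable fall, and was at 7.97 and 7.82 in SC- MOV day 5, against 15.14 and 13.96 in SC- sham. The arrays did not overlap, giving a log2 fold change of -6.65 with a standard error of 0.491 (adjusted p = 1.22e-07). *Dhrs7c*, a dehydrogenase of the sarcoplasmic reticulum, was at 8.24 and 7.92 in SC- MOV day 5, against 13.74 and 13.89 in SC- sham, and fell by 5.74. *Asb15* and *Asb14*, of the ankyrin repeat and SOCS box family that binds cullin ubiquitin ligases, had log2 fold changes of -5.69 and -4.60. *Phkg1*, the catalytic subunit of muscle phosphorylase kinase, was at 10.91 and 10.58 in SC- MOV day 5, against 15.91 and 15.45 in SC- sham, and fell by 4.94. *Ppargc1a*, the coactivator PGC-1 alpha that drives mitochondrial genes, was at 9.45 and 9.09 in SC- MOV day 5, against 14.63 and 13.11 in SC- sham, with a log2 fold change of -4.60, and *Perm1*, a muscle regulator that acts with it, fell by 4.81. The sham arrays of *Ppargc1a* differed widely, and both stood above both MOV arrays. *Rpl3l*, the striated muscle paralog of ribosomal protein L3, fell by 4.71. The rest of the 12 largest stable falls were *Smco1*, a single-pass membrane protein (-5.61), *Adhfe1*, a mitochondrial alcohol dehydrogenase (-4.66), *Klhl38*, a kelch-like protein (-4.50), and *Gpd1*, the cytosolic glycerol 3-phosphate dehydrogenase (-4.46).

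Gene lists from pathways and cell types of overloaded muscle placed these genes in groups, each described by how many of its measured members passed and by its median log2 fold change beside the -0.10 of all genes. Over the 64 lists, 926 genes were measured, of which 367 rose and 214 fell. Of all genes 14.9% rose and 13.0% fell, and a list whose counts are near or under these shares is not set apart by them. Where leaving out 1 array moved a count given below by more than 1.5 times, or away from none, the count without it follows or the gene concerned is named.

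**Figure D2:**
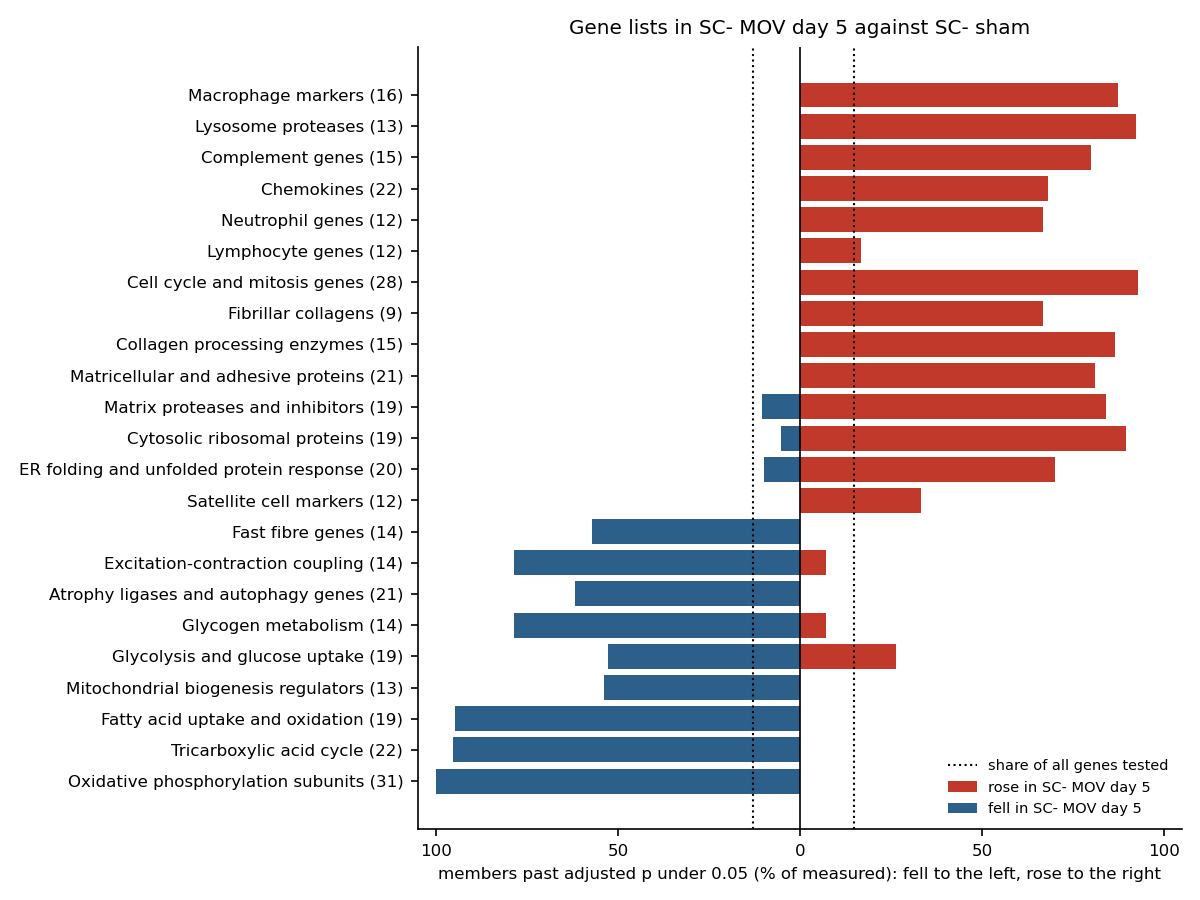
Share of the measured members of 23 gene lists (number in brackets) that rose (red, to the right) or fell (blue, to the left) in SC- MOV day 5 against SC- sham at an adjusted p under 0.05, with the shares of all genes (14.9% rose, 13.0% fell) as dotted lines. All 31 oxidative phosphorylation subunits fell and 26 of 28 cell cycle genes rose, while lymphocyte genes (2 of 12 rose) lay close to the line of all genes.

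Macrophage genes rose as a group. Of 16 macrophage markers, 14 rose and none fell, with a median log2 fold change of 4.55. *Csf1r*, the receptor of macrophage colony-stimulating factor, was at 13.84 and 12.85 in SC- MOV day 5, against 8.52 and 8.53 in SC- sham (log2 fold change 4.82, standard error 0.598, adjusted p = 7.08e-06). Both MOV arrays stayed above both sham arrays by more than 4. *Mpeg1*, a pore-forming protein of macrophages, *Itgam*, the integrin CD11b, and *Lyz2*, lysozyme, rose by 5.60, 5.63 and 5.46. *Ccr2*, the receptor that brings monocytes out of the blood, rose by 4.51, and *Adgre1*, a surface receptor that defines mouse macrophages, by 2.83. Genes linked to resident macrophages differed among themselves. *Mrc1*, the mannose receptor, and *Folr2*, a folate receptor, rose by 4.88 and 2.89, whereas *Cd163*, a scavenger receptor for hemoglobin, did not pass, at 7.80 and 7.07 in SC- MOV day 5 against 6.85 and 6.78 in SC- sham. *Lyve1*, a hyaluronan receptor, was at 6.47 and 5.60 in SC- MOV day 5 and at 6.13 and 6.80 in SC- sham, so that its arrays overlapped, and did not pass either. *Cx3cr1*, the fractalkine receptor, passed (1.41, adjusted p = 0.00685), but not without SC- MOV day 5 replicate 1 (0.85, adjusted p = 0.15) or SC- sham replicate 1 (1.23, adjusted p = 0.065).

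Genes of macrophage states moved in both directions. Of 15 such genes 11 rose and 1 fell, with a median of 3.83. *Arg1*, the arginase of repair macrophages, was at 10.74 and 11.26 in SC- MOV day 5, against 5.53 and 5.65 in SC- sham, at background (5.41). *Trem2* and *Gpnmb*, of lipid-laden macrophages, rose by 3.83 and 3.93, and *Il1b*, the inflammatory cytokine interleukin 1 beta, by 3.87. *Apoe* and *Fabp5*, which carry lipids, rose by 5.31 and 4.86. The 1 gene that fell was *Retnla*, a secreted protein of alternatively activated macrophages, at 5.34 and 4.45 in SC- MOV day 5, at background, against 9.61 and 8.91 in SC- sham. Its log2 fold change of -4.37 (standard error 0.646, adjusted p = 4.14e-05) ran opposite to that of *Arg1*, which marks the same state in cultured macrophages.

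Lysosome and complement genes rose with the macrophage markers. Of 13 lysosome genes 12 rose, with a median of 3.00, led by *Ctss*, by *Ctsc*, which activates the granule proteases of leukocytes (17.33 and 16.82 in SC- MOV day 5 against 12.18 and 12.82 in SC- sham, 4.57), and by *Lgmn*, the asparaginyl protease legumain (4.26). *Lamp1*, a structural protein of lysosomes in all cells, did not pass, at 15.71 and 15.48 in SC- MOV day 5 against 15.19 and 15.12 in SC- sham. Of 15 complement genes 12 rose, with a median of 2.94, among them *C1qa* and *C1qb*, which encode chains of the C1q recognition molecule (4.74 and 4.59), *Cfb*, factor B of the alternative pathway (2.94), and *C5ar1*, the receptor of the fragment C5a (3.12).

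Of 22 chemokines and chemokine receptors 15 rose and none fell, with a median of 3.35. *Ccl12* and *Ccl2*, which attract monocytes, rose by 5.73 and 4.88. *Ccl2* was at 12.56 and 11.73 in SC- MOV day 5, against 6.82 and 7.72 in SC- sham, with no overlap. *Ccl9*, another ligand for myeloid cells, rose by 5.64, *Cxcl5*, which attracts neutrophils, by 4.61, and *Cxcl12*, the stromal factor that holds cells bearing *Cxcr4*, by 2.59. Of 12 neutrophil genes 8 rose, with a median of 2.14, among them *Csf3r*, the receptor of granulocyte colony-stimulating factor (5.18), and *S100a8*, a major cytosolic protein of neutrophils (4.56). *Lcn2*, a neutrophil granule protein that other tissues make under stress, was at 10.22 and 9.26 in SC- MOV day 5 and at 7.74 and 13.48 in SC- sham, where replicate 2 lay above both MOV arrays. Of 12 lymphocyte genes 2 rose, a share close to that of all genes, with 1 without SC- MOV day 5 replicate 1 and none without SC- MOV day 5 replicate 2 or SC- sham replicate 2. The T cell gene *Cd3e* was at 5.09 and 5.38 in SC- MOV day 5 and at 5.32 and 5.39 in SC- sham, at background. Of 16 interferon-stimulated genes 11 rose (median 1.44), but 5 did so without SC- MOV day 5 replicate 1, 6 without SC- MOV day 5 replicate 2 and 6 without SC- sham replicate 1. *Oasl2*, an antiviral enzyme homolog, was among the stable ones, at 9.77 and 8.97 in SC- MOV day 5 against 6.46 and 7.03 in SC- sham (2.63).

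Proliferation genes were higher in depleted muscle under load. Of 28 cell cycle and mitosis genes 26 rose and none fell, with a median log2 fold change of 2.74. Beside *Mki67*, *Plk1*, a mitotic kinase, was at 9.98 and 10.66 in SC- MOV day 5, against 5.96 and 5.60 in SC- sham (4.54, standard error 0.549, adjusted p = 5.56e-06). *Ccna2*, cyclin A, was at 10.03 and 10.01 in SC- MOV day 5, against 5.26 and 5.90 in SC- sham (4.44). The MOV values of *Plk1* and *Ccna2* lay more than 4 above the sham values. *Tpx2*, a spindle assembly factor, *Cdk1*, the kinase that starts mitosis, and *Pcna*, the sliding clamp of DNA polymerases, rose by 3.87, 3.77 and 2.45. *Aurka*, a centrosome kinase, and *Rrm1*, the large subunit of ribonucleotide reductase, did not pass (0.79, adjusted p = 0.0557, and 0.76, adjusted p = 0.0508). Genes of growth arrest and the p53 pathway passed in shares under those of all genes (14.9% rose and 13.0% fell). Of 16 genes of growth arrest and the p53 pathway 1 rose, *Cdkn1a*, the inhibitor p21 (13.90 and 13.23 in SC- MOV day 5 against 10.82 and 11.26 in SC- sham, 2.52), and 1 fell, *Ccng1*, cyclin G1 (-1.81), with 2 higher without SC- sham replicate 2.

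Many mitotic genes carry in their promoters a cell cycle homology region (CHR), which DREAM and MuvB complexes bind, and CCAAT boxes bound by NF-Y. In RefSeq windows of the mouse genome (build GRCm38), from 250 bases before to 50 after each start, 22 of the 28 genes had 1 window each. The CHR letters TTTGAA, searched on both strands, were in 10 of these 22 windows (45.5%) and in 17.9% of all 32851 windows. The letters CCAAT, searched likewise, were in 18 of 22 (81.8%) and in 37.4% of all windows. Neither was particular to these genes, with CHR in 5 of 13 windows of macrophage markers (38.5%) and CCAAT in 17 of 26 windows of tricarboxylic acid cycle genes (65.4%). The following stretches of 30 bases from upstream of the start are shown because each holds a CHR match in a gene whose rise was stable, with the CHR letters in capitals and the strand that of the gene.
*Mki67* (chr7:135716460-135716489, minus strand): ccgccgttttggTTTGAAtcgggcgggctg
*Cdk1* (chr10:69352966-69352995, minus strand): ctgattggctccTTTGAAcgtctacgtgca
*Top2a* (chr11:99024351-99024380, minus strand): ctattggtccatTTTGAAgattctcccgcc
*Cdc20* (chr4:118437344-118437373, minus strand): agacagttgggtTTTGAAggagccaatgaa

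These matches describe letters and not bound sites. *Top2a*, the topoisomerase that untangles sister chromatids, rose by 2.79. *Cdc20*, the activator of the anaphase-promoting complex, was at 7.34 and 7.12 in SC- MOV day 5 against 5.49 and 5.83 in SC- sham (1.57). The stretches of *Cdk1* and *Top2a* also hold the CCAAT letters on the other strand (attgg) and that of *Cdc20* on the same strand (ccaat).

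Matrix genes rose across the steps by which collagen is made. Of 9 fibrillar collagens 6 rose, with a median of 3.93. *Col5a1*, a chain of the collagen that starts fibrils, was at 10.79 and 10.93 in SC- MOV day 5, against 6.56 and 5.74 in SC- sham (log2 fold change 4.71, standard error 0.648, adjusted p = 2.03e-05). *Col1a1* and *Col3a1*, the main collagens of scar and endomysium, were at 17.08 and 17.05 and at 18.66 and 18.66 in SC- MOV day 5, against 13.20 and 12.24 and 14.79 and 14.14 in SC- sham (4.35 and 4.19). The MOV pools differed little in these genes and no array overlapped. Of 15 enzymes and chaperones of collagen 13 rose, with a median of 2.70. *Serpinh1*, the collagen chaperone HSP47, was at 13.76 and 14.08 in SC- MOV day 5 against 9.83 and 9.35 in SC- sham (4.33), *Plod2*, a lysyl hydroxylase, rose by 4.11 and *Loxl3*, a relative of *Lox*, by 4.59. Of 13 other collagens 8 rose, but 4 without SC- MOV day 5 replicate 1 and 5 without SC- sham replicate 2, and the stable ones included *Col6a3* of beaded filaments (2.30).

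Of 21 matricellular and adhesive proteins 17 rose and none fell, with a median of 3.08 and with 1 lower without SC- sham replicate 2. *Fn1*, fibronectin, was at 17.05 and 17.27 in SC- MOV day 5, against 12.95 and 12.30 in SC- sham (4.53), and *Thbs2* and *Tgfbi*, which bind matrix and integrins, rose by 5.48 and 5.21. *Postn*, periostin, was at 19.33 and 18.97 in SC- MOV day 5 against 16.43 and 14.83 in SC- sham, and did not pass (3.51, adjusted p = 0.117). Its 20 arrays varied widely, with SC+ sham at 10.03 and 17.22. In limma *Postn* passed with the 4 arrays compared alone (adjusted p = 0.000107) and with the 10 SC- arrays (adjusted p = 0.0468). Its call thus depended on whether SC+ arrays were in the fit. Of 19 matrix proteases and inhibitors 16 rose and 2 fell. *Adam12*, a membrane protease of activated mesenchymal cells, rose by 4.59 and *Mmp14*, which activates other matrix proteases at the cell surface, by 4.39. *Timp4*, the inhibitor found in healthy muscle, was at 6.42 and 5.86 in SC- MOV day 5, against 9.29 and 9.23 in SC- sham, and fell by 3.12, while *Timp1* rose. *Timp3* also fell (-1.18, adjusted p = 0.0122), but not without SC- MOV day 5 replicate 2 (-1.10, adjusted p = 0.075) or SC- sham replicate 2 (-0.75, adjusted p = 0.17).

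Markers of fibroblasts and fibro-adipogenic progenitors split, with 8 of 15 higher and 2 lower (median 0.93), and 5 higher without SC- MOV day 5 replicate 1, without SC- MOV day 5 replicate 2 or without SC- sham replicate 2. In 3 of the 4 fits without 1 array, all but that without SC- sham replicate 2, 1 was lower. *Thy1*, a surface protein of activated fibroblasts, was at 9.74 and 9.51 in SC- MOV day 5, against 6.68 and 6.02 in SC- sham (3.27). *Gsn*, gelsolin, which severs actin, was at 11.50 and 11.39 in SC- MOV day 5, against 14.71 and 14.62 in SC- sham (-3.22). *Dcn*, decorin, which resting fibroblasts make in quantity, did not pass, at 18.21 and 18.03 in SC- MOV day 5 against 17.72 and 17.52 in SC- sham. A shorter set of 5 measured fibroblast markers, with *Dcn*, *Col1a1* and *Col3a1* among them, had 4 higher and none lower. Its mean was 16.6 and 16.4 in SC- MOV day 5 against 14.2 and 13.7 in SC- sham. Of 17 tendon and cartilage genes 10 rose and 2 fell, with 6 higher without SC- MOV day 5 replicate 2 and 1 lower without any 1 of the 4 arrays. *Scx*, the transcription factor of tendon progenitors, was at 9.20 and 9.33 in SC- MOV day 5, against 7.41 and 6.43 in SC- sham (2.34), and *Chad*, chondroadherin, was at 5.22 and 5.43 against 8.85 and 7.74 in SC- sham (-2.97). Of 19 integrins and laminins 14 rose and 2 fell, led by *Itga5*, the alpha chain of the fibronectin receptor (4.21), and *Lamb1*, a laminin chain (3.52), while *Lama2*, the laminin chain of the adult fibre's basement membrane, fell by 1.15, with 1 lower without SC- MOV day 5 replicate 2 and 1 without SC- sham replicate 2.

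All 31 subunits of oxidative phosphorylation measured fell, with a median log2 fold change of -2.12, and 29 of them were stable. *Cox7a1*, a muscle isoform subunit of cytochrome c oxidase, was at 10.42 and 10.01 in SC- MOV day 5, against 14.26 and 14.44 in SC- sham (-4.13, standard error 0.444, adjusted p = 1.84e-06). *Cox8b*, another muscle isoform, fell by 3.86. *Ndufs1*, the largest core subunit of complex I, was at 12.15 and 11.24 in SC- MOV day 5, against 14.68 and 14.59 in SC- sham (-2.94). The smallest falls included *Atp5b* and *Atp5a1*, the catalytic core of ATP synthase (-0.96 and -1.18), whose sham values of 18.87 to 19.46 lay near the top of the scale. No MOV array of these genes reached a sham array.

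**Figure D3:**
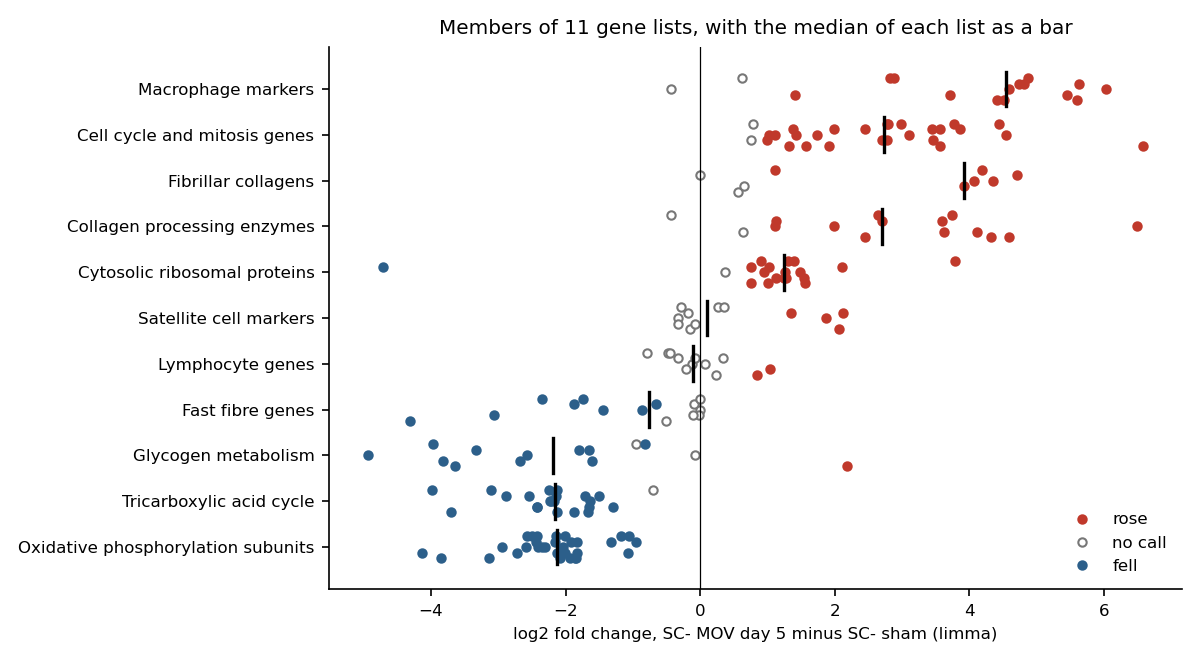
Log2 fold change of SC- MOV day 5 over SC- sham (x axis) for each measured member of 11 gene lists, in red where it rose, blue where it fell and white where it did not pass, with the list median as a black bar. Macrophage markers lie around a median of 4.55 and oxidative phosphorylation subunits around -2.12, and among ribosomal proteins *Rpl3* (3.79) and *Rpl3l* (-4.71) stand apart from the rest.

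Of 22 genes of the tricarboxylic acid cycle and pyruvate entry 21 fell, with a median of -2.16. *Idh2*, the mitochondrial NADP-dependent isocitrate dehydrogenase, was at 11.27 and 10.59 in SC- MOV day 5, against 14.31 and 15.50 in SC- sham (-3.98), and *Cs*, citrate synthase, was at 13.91 and 13.51 against 15.85 and 16.07 in SC- sham (-2.25). *Pdk2* and *Pdk4*, kinases that turn off pyruvate dehydrogenase, fell (-3.70 and -3.11). The 1 member that did not pass was *Sucla2*, a succinate-CoA ligase subunit (-0.69, adjusted p = 0.0848), with values of 5.35 and 5.42 in SC- MOV day 5 against 6.18 and 5.98 in SC- sham, close to background. In fatty acid uptake and oxidation, 18 of 19 genes fell, with a median of -2.17, led by *Lpl*, lipoprotein lipase (-3.77), and *Cpt1b*, which passes fatty acids into mitochondria (-3.74). *Cpt1b* was at 10.36 and 9.77 in SC- MOV day 5, against 13.42 and 14.18 in SC- sham. Of 13 regulators of mitochondrial genes 7 fell and none rose, among them *Ppargc1a*, *Perm1*, *Ppara*, the fatty acid receptor (-2.21), and *Tfam*, which packs and transcribes mitochondrial DNA (8.03 and 7.63 in SC- MOV day 5 against 9.04 and 9.37 in SC- sham, -1.38). *Nrf1*, the nuclear respiratory factor, did not pass (0.43, adjusted p = 0.249). The letters GCGCATGC of its site, searched on both strands, were in 2 of 25 windows of 23 oxidative phosphorylation genes (8%) and in 2.71% of all windows.

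Of 14 glycogen genes 11 fell and 1 rose, with a median of -2.18. All 3 measured subunits of phosphorylase kinase, *Phkg1*, *Phka1* and *Phkb*, fell (-4.94, -3.97 and -3.33). *Gys1*, muscle glycogen synthase, and *Pygm*, muscle glycogen phosphorylase, fell (-2.57 and -1.65), and the sham values of *Pygm* of 19.91 and 19.92 lay at the top of the scale. *Pgm1*, the main phosphoglucomutase, was at 13.95 and 13.97 in SC- MOV day 5 against 16.94 and 16.34 in SC- sham (-2.68), whereas *Pgm2*, its paralog that also acts on ribose phosphates, was at 9.89 and 9.74 against 7.84 and 7.42 in SC- sham (2.19). Of 19 genes of glucose uptake and glycolysis 10 fell and 5 rose. *Slc2a4*, the insulin-responsive transporter GLUT4, was at 9.41 and 8.69 in SC- MOV day 5, against 12.96 and 13.01 in SC- sham (-3.93), and *Hk2*, the hexokinase of muscle, fell by 2.02, while *Hk1*, the hexokinase of most tissues, was at 9.88 and 10.01 against 7.85 and 7.59 in SC- sham (2.22). Likewise *Pgam2*, the muscle phosphoglycerate mutase, fell by 2.98 and *Pgam1*, its form in other tissues, rose by 2.49. *Slc2a1*, the transporter GLUT1, rose by 3.19 (adjusted p = 0.000183), with 11.50 and 12.05 in SC- MOV day 5 against 7.51 and 9.65 in SC- sham, and by 2.12 without SC- sham replicate 1. Of 9 genes of the creatine kinase and AMP deaminase systems 5 fell, led by *Ampd1*, muscle AMP deaminase (-3.98), and *Ckmt2*, mitochondrial creatine kinase (-3.87).

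Of 10 measured genes of the pentose phosphate pathway and the steps next to it, which supply ribose and NADPH, 3 rose and 1 fell, with 1 higher and 2 lower without SC- MOV day 5 replicate 1 and none lower without any other array compared. Its first and rate-limiting enzyme, glucose 6-phosphate dehydrogenase (G6pdx), and transketolase (Tkt) are not among the genes analysed here. *Pgd*, the second dehydrogenase of its oxidative branch, was at 9.66 and 9.46 in SC- MOV day 5, against 8.14 and 7.87 in SC- sham (1.55, standard error 0.287, adjusted p = 0.000368), and its call was stable. *Taldo1*, transaldolase of the non-oxidative branch, was at 7.18 and 7.08 in SC- MOV day 5 against 6.16 and 5.99 in SC- sham (1.06, adjusted p = 0.0154), and did not pass without SC- MOV day 5 replicate 1 (1.01, adjusted p = 0.079), SC- MOV day 5 replicate 2 (1.11, adjusted p = 0.053) or SC- sham replicate 2 (0.97, adjusted p = 0.082). Of 17 genes of serine, folate and one-carbon metabolism 9 rose and 3 fell, with 5 higher without SC- MOV day 5 replicate 2 and 5 without SC- sham replicate 1. Of the 3 falls 1 was left without SC- MOV day 5 replicate 1, 1 without SC- MOV day 5 replicate 2 and none without SC- sham replicate 1. *Psat1*, of serine synthesis, was at 8.73 and 8.76 in SC- MOV day 5, against 6.04 and 6.17 in SC- sham (2.64), *Sfxn1*, the mitochondrial serine carrier, rose by 2.40 and *Mthfd2*, of mitochondrial folate, by 1.35. Of 21 genes of nucleotide synthesis and salvage 9 rose and 4 fell. *Uck2*, which salvages uridine and cytidine, was at 13.14 and 12.76 in SC- MOV day 5, against 9.59 and 10.04 in SC- sham (3.13), and *Adsl*, a purine synthesis enzyme that also serves the purine nucleotide cycle of muscle, fell by 2.26.

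Of 24 genes of glutathione, thioredoxin and NRF2 targets 10 rose and 4 fell. Beside *Hmox1*, *Gpx1*, a glutathione peroxidase, was at 14.15 and 14.02 in SC- MOV day 5, against 10.88 and 10.96 in SC- sham (3.16), and *Prdx4*, a peroxiredoxin of the secretory pathway, rose by 2.96. *Gstm1*, a glutathione transferase, was at 10.84 and 10.77 in SC- MOV day 5, against 14.56 and 14.92 in SC- sham (-3.93), and *Sod2*, the mitochondrial superoxide dismutase, fell by 2.51. Of 8 NADPH oxidase genes 6 rose and 1 fell, the fall being lost without SC- MOV day 5 replicate 1, SC- sham replicate 1 or SC- sham replicate 2, with *Cybb*, the catalytic subunit of phagocytes, at 14.03 and 13.52 in SC- MOV day 5 against 9.93 and 9.78 in SC- sham (3.92) and *Ncf4*, a cytosolic subunit, 2.91 higher.

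Of 14 fast fibre genes 8 fell and none rose, and *Pvalb*, the calcium buffer parvalbumin, was at 15.02 and 14.28 in SC- MOV day 5, against 19.04 and 18.88 in SC- sham (-4.31, standard error 0.381, adjusted p = 4.41e-07). *Mybpc2*, fast myosin-binding protein C, *Actn3*, the fast Z-disc actinin, and *Tnni2*, fast troponin I, fell (-3.06, -2.34 and -1.87). Of 14 genes of excitation-contraction coupling 11 fell and 1 rose, with a median of -1.69, the rise being lost without SC- MOV day 5 replicate 1 or SC- sham replicate 1. *Ryr1*, the calcium release channel, was at 14.17 and 13.62 in SC- MOV day 5, against 16.73 and 16.67 in SC- sham (-2.80), and *Jph1*, which joins the membranes of the triad, fell by 3.58. Slow fibre genes depended on the sham pool used. With all arrays their shares lay close to or under those of all genes (14.9% rose and 13.0% fell). Of 12 such genes 1 rose and 2 fell, but 5 fell without SC- sham replicate 1 and 4 rose and 1 fell without SC- sham replicate 2. *Myh7* was at 10.44 and 10.49 in SC- MOV day 5, against 11.64 and 15.26 in SC- sham, and its fold change of -2.99 (adjusted p = 0.00327) was -4.80 without SC- sham replicate 1 and -1.18 (adjusted p = 0.086) without SC- sham replicate 2. *Myl3*, the slow ventricular light chain, fell in every such fit (-2.68).

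Of 18 stretch-responsive and Z-disc genes 5 rose and 7 fell, with 3 higher and 3 lower without SC- MOV day 5 replicate 2 and 4 lower without SC- sham replicate 2. *Ankrd1*, a titin-binding ankyrin repeat protein, was at 17.07 and 16.45 in SC- MOV day 5, against 12.71 and 13.37 in SC- sham (3.72, standard error 0.65, adjusted p = 0.000217). *Csrp3*, the muscle LIM protein, was at 16.16 and 16.40 in SC- MOV day 5, against 13.07 and 13.10 in SC- sham (3.19). *Tcap*, which caps titin, and *Myoz1*, which binds calcineurin at the Z-disc, fell (-3.49 and -2.92). Denervation and acetylcholine receptor genes, of which 13 were measured, had a median log2 fold change of 0.08. The highest in that list was *Runx1*, a transcription factor of denervated and regenerating muscle. *Runx1* was at 11.50 and 11.26 in SC- MOV day 5, against 6.94 and 7.40 in SC- sham (4.21). The lowest was *Chrne*, the adult acetylcholine receptor subunit, which fell by 1.58.

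Of 12 satellite cell genes 4 rose, *Cd34*, *Itga7*, *Sdc4* and *Vcam1* (1.36, 1.86, 2.07 and 2.12), surface proteins that vessels, fibres, fibroblasts or leukocytes also carry, and the others did not pass. For this list and the next, the shares of all genes were 14.9% higher and 13.0% lower. Of 13 myogenic regulators and fusion genes 1 rose and 3 fell, with 1 lower without SC- MOV day 5 replicate 1 and 1 without SC- sham replicate 2. *Myog*, the transcription factor of myoblast differentiation, was at 8.17 and 7.87 in SC- MOV day 5, against 6.71 and 6.27 in SC- sham (1.53, adjusted p = 0.00992), and did not pass without SC- MOV day 5 replicate 1 (1.38, adjusted p = 0.075) or SC- sham replicate 2 (1.31, adjusted p = 0.082). *Mymk*, the fusion protein myomaker, was at 9.29 and 9.04 in SC- MOV day 5, against 8.35 and 7.08 in SC- sham (1.45, adjusted p = 0.38). It passed in limma with the 4 arrays compared alone (adjusted p = 0.0172), but in no other alternative run. *Myh3*, the embryonic myosin heavy chain of new fibres, was at 9.46 and 8.63 in SC- MOV day 5, against 8.40 and 7.63 in SC- sham (1.03, adjusted p = 0.586). In each of these 3 genes both MOV arrays were above both sham arrays, but such a separation, in either direction, held for 57.9% of all genes.

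Of 16 genes of the insulin-like growth factor axis 6 rose and 3 fell, with a median of 0.63. *Igf1*, the growth factor of muscle and macrophages, was at 16.59 and 16.96 in SC- MOV day 5, against 12.82 and 12.43 in SC- sham (4.15, standard error 0.688, adjusted p = 0.000127). *Igfbp4* and *Igfbp3*, which bind it, rose by 2.97 and 2.68, and *Insr*, the insulin receptor, fell by 1.36. Of 23 genes of the myostatin, activin and BMP axis 9 rose and 3 fell, with 4 higher without SC- MOV day 5 replicate 2, 5 without SC- sham replicate 1 and 5 without SC- sham replicate 2, and with 1 lower without SC- MOV day 5 replicate 2 and 1 without SC- sham replicate 1. *Mstn*, myostatin, which restrains muscle growth, was at 9.16 and 8.93 in SC- MOV day 5, against 13.41 and 13.05 in SC- sham (-4.19). Of 21 atrophy and autophagy genes 13 fell and none rose, with a median of -1.23. *Fbxo32* and *Trim63*, the ubiquitin ligases atrogin-1 and MuRF1, fell (-3.53 and -2.39), and *Trim63* was at 12.59 and 11.95 in SC- MOV day 5 against 14.16 and 15.15 in SC- sham. *Klf15*, a glucocorticoid-induced factor upstream of these ligases, fell by 2.77. Of 17 amino acid transporters and regulators of mTORC1 6 rose and 3 fell, with a median of 0.05. *Ddit4l* and *Deptor*, inhibitors of mTOR signalling, fell (-3.49 and -1.87), and *Slc7a5* and *Slc7a7*, amino acid transporters, rose by 2.21 and 2.81. *Tgfb1*, transforming growth factor beta 1, rose by 3.63. Of 13 secreted muscle peptides 6 rose and 3 fell, the falls being *Ostn*, *Il15* (-2.34) and *Fndc5*, the precursor of irisin (-2.22).

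Ribosomal protein genes rose, with 17 of 19 higher and a median of 1.24, and 11 higher without SC- MOV day 5 replicate 1. *Rpl3*, the ubiquitous form of ribosomal protein L3, was at 16.23 and 16.20 in SC- MOV day 5, against 12.37 and 12.49 in SC- sham (3.79, standard error 0.421, adjusted p = 2.55e-06), while its muscle paralog *Rpl3l* was at 9.42 and 8.72 against 13.92 and 13.65 in SC- sham. Both pairs of arrays were clear of each other, in opposite directions. Of 22 ribosome biogenesis genes 8 rose and none fell, with 5 higher without SC- MOV day 5 replicate 1, 5 higher and 2 lower without SC- sham replicate 1 and 1 lower without SC- sham replicate 2, and *Myc*, the transcription factor that drives them, rose by 3.47. Of 20 genes of endoplasmic reticulum folding 14 rose and 2 fell, with 4 lower without SC- sham replicate 1 and 1 without SC- MOV day 5 replicate 2 or SC- sham replicate 2. *Pdia6* and *Pdia3*, which form disulfide bonds, rose by 3.63 and 3.26 and *Hspa5*, the chaperone BiP, was at 17.04 and 17.16 in SC- MOV day 5 against 14.94 and 14.97 in SC- sham (2.15). *Herpud1*, of the degradation arm, fell by 2.24.

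Vascular genes showed a mixed picture. Of 14 endothelial genes 4 rose and 1 fell, with 2 lower without SC- MOV day 5 replicate 1. *Cdh5*, the endothelial cadherin, was at 13.49 and 13.38 in SC- MOV day 5, against 11.72 and 11.71 in SC- sham (1.71), and *Flt1*, a receptor that holds back vascular endothelial growth factor, was at 9.02 and 9.13 against 9.92 and 10.13 in SC- sham (-0.95). Of 14 angiogenic factors 6 rose and 5 fell, with *Vegfa* and *Vegfb*, the growth factors made by fibres, lower (-1.93 and -2.40) and *Angpt2* and *Hgf*, the ligands of TIE2 and MET, each 2.75 higher. The 12 pericyte and smooth muscle genes moved in both directions, with a median of -0.005. Among them *Acta2* and *Tagln*, smooth muscle proteins that myofibroblasts also make, rose by 3.72 and 3.29. *Abcc9*, a potassium channel subunit, fell by 2.14. The mean of 4 mural cell markers was lower, at 6.80 and 6.75 in SC- MOV day 5 against 7.14 and 7.22 in SC- sham. That of 5 endothelial cell markers, of which 3 rose and none fell, was higher, at 10.79 and 10.60 against 9.76 and 9.86 in SC- sham. *Sfrp2* and *Sfrp1*, secreted Wnt antagonists, were among the larger rises (4.96 and 4.32), with *Sfrp2* at 11.81 and 10.98 in SC- MOV day 5 against 6.42 and 6.45 in SC- sham. *Axin2*, a target of Wnt signalling, fell by 1.38.

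Within the SC- course, day 5 differed from day 3 of MOV in 103 genes (0.528% of all genes), 53 higher (0.272%) and 50 lower (0.256%), and day 7 from day 5 in 8 genes (0.0410%), 6 higher (0.0308%) and 2 lower (0.0103%). Both counts use the day 5 arrays and depended on single arrays. Against day 3, 6 genes passed without day 3 replicate 1, 0 without day 3 replicate 2, 20 without day 5 replicate 1 and 1 without day 5 replicate 2. For day 7, 0 passed without day 5 replicate 1, 2 without day 5 replicate 2, 0 without day 7 replicate 1 and 3 without day 7 replicate 2. At an unadjusted p under 0.05 the counts were 2407 (12.3%) and 1489 (7.63%) with all arrays. *Tnmd*, tenomodulin of tendon cells, was at 12.44 and 12.49 at day 5, against 9.44 and 9.10 at day 3 (3.20, adjusted p = 0.0256), and reached 14.27 and 14.62 at day 7. *Tnn*, tenascin N, was at 9.97 and 8.77 at day 5, against 6.04 and 6.42 at day 3 (3.14), *Mmp14* was 2.97 higher at day 5, *Itm2a*, a membrane protein of differentiating mesenchymal cells, by 2.83, and *Ddah1*, which breaks down methylated arginine, by 2.70. Others were lower at day 5 than at day 3. *Cxcl2*, a neutrophil chemokine, was at 7.84 and 8.18 at day 5, against 10.85 and 11.30 at day 3 (-3.06, adjusted p = 0.00764). *Clu*, the extracellular chaperone clusterin, was lower at day 5 than at day 3 (-2.75), as were *Trim63* (-2.63), *Klhl40*, a kelch protein of the sarcomere (-2.44), and *2310002L09Rik*, a gene of no named role here (-2.59). Against SC- sham, *Itm2a*, *Clu* and *Klhl40* did not pass at day 5. *Clu* at day 5 (13.53 and 13.94) lay between its SC- sham arrays (13.19 and 14.92). The differences of these genes from day 3 are therefore not changes from sham. From day 5 to day 7 *Ptn*, the growth factor pleiotrophin, was 3.09 higher (13.83 and 12.92 at day 7 against 10.04 and 10.54 at day 5), as were *Mmp9*, a gelatinase (3.28), *Col11a1*, a fibrillar collagen of cartilage (2.35), *Sox9*, the transcription factor of cartilage (1.85), and *Cnn1*, smooth muscle calponin (1.75). *E2f1*, which drives entry into DNA synthesis, was lower at day 7 than at day 5 (-1.43), as was *Cryab*, a small heat shock protein (-1.27). Both day 7 arrays of *E2f1*, at 4.32 and 4.30, lay below the background medians. Its day 5 arrays, at 6.04 and 5.45, were close to them, the lower within their range. The size of its change is thus only a bound.

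**Figure D4:**
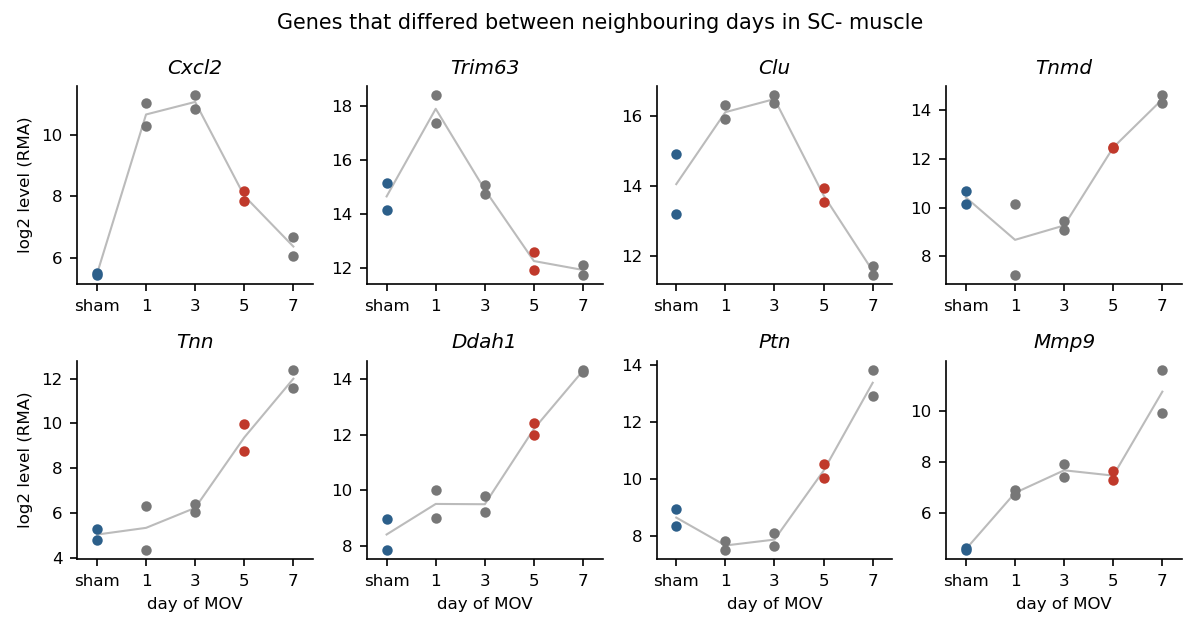
Log2 RMA level (y axis) of 8 genes in SC- sham and at days 1, 3, 5 and 7 of MOV (x axis), with each array as a point (day 5 in red, sham in blue) and the group means joined by a line. *Tnmd*, *Tnn*, *Ddah1* and *Ptn* climb through day 5 to day 7, and *Cxcl2* and *Clu* are lower at day 5 than at day 3.

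List medians of SC- MOV against the shared SC- sham arrays, given side by side for days 1, 3, 5 and 7, placed each group in the course. They were 1.26, 4.10, 4.55 and 3.77 for macrophage markers, 3.23, 2.85, 2.14 and 1.41 for neutrophil genes, and 0.39, 2.08, 2.74 and 2.39 for the cell cycle. Fibrillar collagens had medians of -0.11, 1.99, 3.93 and 4.50. Heat shock proteins had medians of 2.27, 1.19, 0.03 and -0.06. Oxidative phosphorylation subunits had medians of -1.19, -1.93, -2.12 and -2.07, and atrophy and autophagy genes had medians of -0.38, -0.74, -1.23 and -1.53. Among those genes *Trim63* had log2 fold changes of 3.24, 0.25, -2.39 and -2.72 and *Fbxo32* of 0.68, -2.04, -3.53 and -4.49. No test was made between these medians.

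The day 5 response of SC- muscle was set against that of SC+ muscle, which has its own sham arrays, in the same fit. No gene passed the adjusted threshold for a difference of the 2 responses, the lowest adjusted p being 0.44 in limma, and 1522 genes (7.80%) had an unadjusted p under 0.05. Without SC+ sham replicate 1 the count was 2, without SC+ sham replicate 2 it was 1, and without SC+ sham replicate 2 and SC- sham replicate 1 it was 8. SC+ sham replicate 2 stood apart, with *Myh3* at 13.62 against 7.46 in replicate 1 and *Mymk* at 12.74 against 6.87. The mean of 8 macrophage markers on that array was 10.3, against 7.70 on SC+ sham replicate 1 and 8.49 and 8.58 on the SC- sham arrays. Its part in the differences below was not tested beyond these counts.

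Over all 19505 genes the measured response was higher in SC- muscle for 9617. The genes that follow changed in SC- muscle, so that a larger SC- value among them is in part a matter of that choice. *C3ar1* rose by 6.37 in SC- muscle and by 3.45 in SC+ muscle (difference 2.92, adjusted p = 0.543). *Mmp12* rose by 6.76 in SC- muscle and by 3.91 in SC+ muscle (2.84, adjusted p = 0.594). *Csf3r* rose by 5.18 in SC- muscle and by 2.88 in SC+ muscle (2.30, adjusted p = 0.543), and *Sfrp2* by 4.96 in SC- muscle and by 2.71 in SC+ muscle (2.25, adjusted p = 0.543). None of these differences passed. *Pvalb* fell by 4.31 in SC- muscle and by 2.38 in SC+ muscle (-1.94, adjusted p = 0.543), and *Dhrs7c* by 5.74 in SC- muscle and by 3.82 in SC+ muscle (-1.92, adjusted p = 0.543). Oxidative phosphorylation subunits had a median of -2.12 in SC- muscle and -1.29 in SC+ muscle, and macrophage markers of 4.55 in SC- muscle and 2.94 in SC+ muscle.

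Genes of new fibres differed the other way in their measured values. *Myh3* was 1.03 higher at day 5 in SC- muscle and 3.59 higher in SC+ muscle (difference -2.56, adjusted p = 0.745). At day 5 it was at 9.46 and 8.63 in SC- muscle against 13.67 and 14.59 in SC+ muscle. *Tnnt2*, the cardiac troponin T that developing fibres make, was at 9.20 and 8.56 in SC- MOV day 5 against 12.75 and 12.80 in SC+ MOV day 5. Its own rise in SC- muscle (2.27, adjusted p = 0.0482) did not pass without any 1 of the 4 SC- arrays. *Mymk* was at 9.29 and 9.04 in SC- MOV day 5 against 12.93 and 13.28 in SC+ MOV day 5. In the direct comparison of SC- with SC+ at day 5, 1 gene passed (0.00513% of all genes), *Fndc3c1*, a fibronectin type III domain gene. It was at 5.11 and 4.28 in SC- MOV day 5 against 7.41 and 7.73 in SC+ MOV day 5 (-2.88, adjusted p = 0.0187 in limma). Both SC- arrays lay below the background medians given above, so the size of this difference is only a bound. The median log2 fold change of the 12 embryonic and developmental sarcomere genes was 1.01 in SC- muscle and 2.30 in SC+ muscle.

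**Figure D5:**
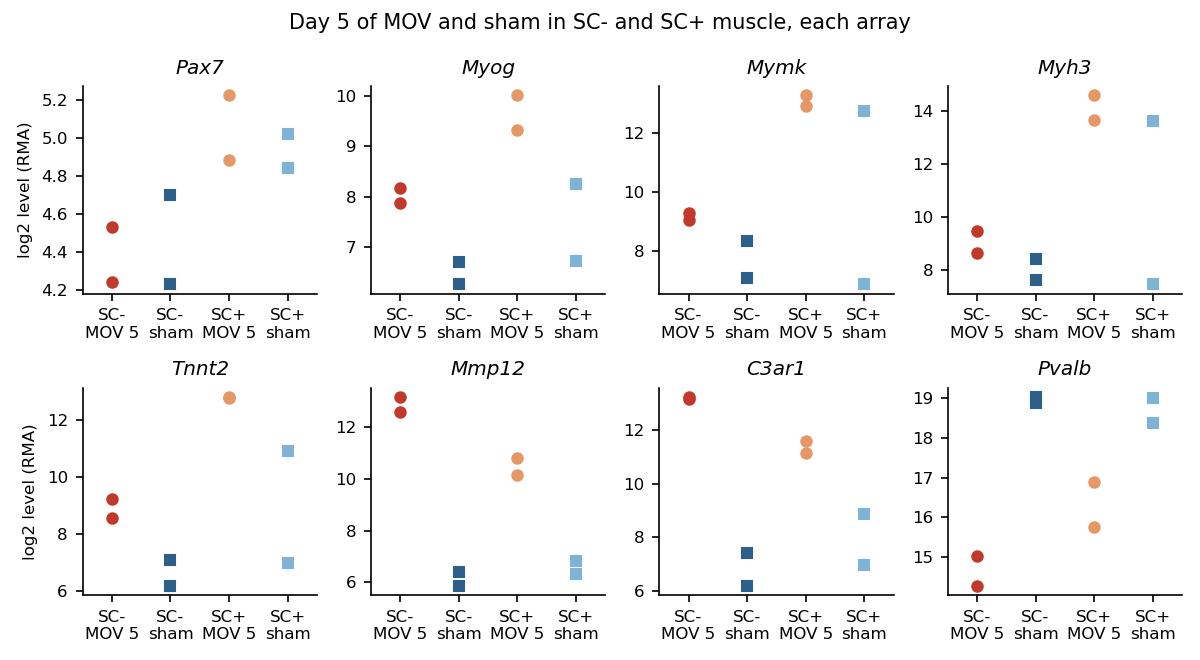
Log2 RMA level (y axis, its own range for each gene) of 8 genes on each array of SC- MOV day 5, SC- sham, SC+ MOV day 5 and SC+ sham. *Myh3*, *Mymk* and *Tnnt2* are lower in SC- MOV day 5 than in SC+ MOV day 5 and high on 1 SC+ sham array, *Mmp12* and *C3ar1* are higher in SC- MOV day 5, and *Pax7* lies near background on every array.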

How the data were processed

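RNA of pooled plantaris muscle was measured on 20 arrays in 10 groups of 2, and 4 of them (SC- MOV day 5 and SC- sham) form the comparison. The deposited values are on the log2 scale, normalized by the authors with RMA per the submitters' processing notes (its version is not given in the sources used here). Probe sets with 1 gene symbol in the platform annotation were kept, and for 55 genes with several, 1 was used by the rule of the highest mean. A fit with a mean per group was made over all 20 arrays (limma 3.58.1, statmod 1.5.0, R 4.3.3), and p-values were adjusted over 19505 genes by the Benjamini-Hochberg method. The same fit gave the day and SC+ contrasts. Arrays of 2 pools a group limit the precision.

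Alternatives were the samples in the fit, each array left out, the replicate number as a block, a filter on dim genes, the rows tested, the normalization and the variance model. The comparison, gene lists and tests were chosen with earlier results of these data known. Named are the 12 largest stable rises and falls, up to 5 stable members a direction of each list described, members of lists of 12 or fewer, markers that did not pass, the 5 largest differences a direction between days, and *Pax7*. *Adgre1*, *Atp5a1*, *Atp5b*, *Aurka*, *C5ar1*, *Ccr2*, *Cdc20*, *Cfb*, *Cs*, *Csf1r*, *Cx3cr1*, *Cxcl12*, *Cxcr4*, *Fn1*, *Fndc3c1*, *Folr2*, *Gpnmb*, *Gys1*, *Hk2*, *Hspa5*, *Il1b*, *Lamp1*, *Mymk*, *Myog*, *Nrf1*, *Pcna*, *Pgm1*, *Postn*, *Pygm*, *Rrm1*, *Slc2a1*, *Sucla2*, *Timp3*, *Top2a* and *Trem2* were chosen after their values were seen. The fit was tested on simulated data with known changes and independent normal noise, which hold no outlying pool like those among the sham arrays.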

Additional observations from a re-analysis of the deposited data

How the results depend on the processing

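Of 209 genes named, 187 kept their direction and side of the threshold in every alternative run. Genes named for a stable call had by definition passed with each compared array left out, and those fits are among the alternative runs. For these genes, agreement in those fits was set by the naming rule and is not a separate test. The count of genes past the threshold in SC- MOV day 5 against SC- sham was 5436 and lay between 4327 and 4677 without 1 array. With the replicate number as a block, the counts were 2874 higher and 2526 lower (5400), and 0 for the difference of the responses, with 1525 unadjusted. Deviations of same-numbered arrays correlated between -0.155 and 0.216 (-0.150 for this comparison). These values gave no clear sign that the numbers pair the arrays, but they cannot exclude it. The block changed no other count by over 1.5 times. Day 5 against day 3 gave 252 genes with the arrays compared alone, 27 over all rows of the table and 0 to 20 without 1 array. Day 7 against day 5 gave 35 genes with the arrays compared alone, 1 over all rows and 0 to 3 without 1 array. The difference of the responses gave 0 to 2 genes without 1 array, 977 to 2185 unadjusted, and 8 without SC+ sham replicate 2 and SC- sham replicate 1, an alternative chosen after seeing the data. Satellite cell markers between SC- and SC+ gave 0 to 1 genes without 1 array.

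Some genes that did not pass changed sign. With 1 array left out, the log2 fold change of *Pax7* ran from -0.31 (without SC- sham replicate 2) to 0.16 (without SC- sham replicate 1), and with quantile normalization repeated it was 0.033. *Cd3e* ran from -0.27 (without SC- MOV day 5 replicate 2) to 0.026 (without SC- MOV day 5 replicate 1), and *Lyve1* from -0.87 (without SC- MOV day 5 replicate 1) to 0.0056 (without SC- MOV day 5 replicate 2). Without SC- sham replicate 1 and without SC- sham replicate 2, in that order, *Mt2* was at -0.41 and 6.14, *Clu* at -1.19 and 0.55, *Itm2a* at 0.91 and -0.062, *Klhl40* at -0.19 and 0.031, and *Lcn2* at -3.74 and 1.99. The cause was not tested. Genes near background or near the top of the scale can show little change, and 2 pools a group give no measure of the spread between mice.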
